A study of Mus musculus with 12 samples.

Results

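Injured hearts given the inhibitor ML264 were compared with sham-operated hearts, using 8 of the 12 RNA-seq libraries of a mouse study, 4 per group, chosen by the group named in their titles. The sham group (Sham) was operated on without the injury and taken at 2 h. The treated group (I/R + ML264) underwent 30 min of ischemia, then 2 h of reperfusion, with ML264, which the design text names as a pharmacological inhibitor of the transcription factor KLF5. The other 4 libraries came from hearts with the same injury and no ML264 (I/R), and they are set beside the treated hearts where a direct comparison of the injured groups was needed. The question was what part of the response to injury remained under the inhibitor. No group of sham hearts given ML264 is in the series. Injury and ML264 thus change together in the comparison with Sham, and their effects cannot be told apart in it. All libraries were made from total RNA of frozen heart. The labels give no strain, sex, age, part of the heart, vehicle, dose or time of ML264, and nothing in them ties each library to an animal of its own. The p-values therefore speak of the spread between libraries, which may be technical.

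When blood flow returns to ischemic heart muscle, cells meet calcium overload, reactive oxygen species and mechanical stress. Within minutes to hours they transcribe immediate early genes, which need no new protein synthesis and mostly encode transcription factors, and then genes for cytokines, chemokines and adhesion molecules that recruit neutrophils. The integrated stress response lowers protein synthesis through phosphorylation of the initiation factor eIF2 alpha and is switched off again by a phosphatase that holds the GADD34 subunit. KLF5 belongs to the Krüppel-like factors, zinc-finger proteins that bind GC-rich and CACCC sequences. In the heart it has been tied to fatty acid oxidation and sphingolipid synthesis.

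The libraries held 22.26 to 29.93 M estimated counts, and levels are given as CPM (counts per 1 M, scaled by the TMM factors of edgeR). Cardiomyocyte markers, summed over 16 genes, stood at 89400 to 103000 CPM in Sham and 96800 to 107000 in I/R + ML264, which fits the labelled tissue. Klf5 had 3, 10, 3 and 4 counts in Sham libraries 1 to 4 and 5, 9, 8 and 3 in the I/R + ML264 libraries, too few to be tested. The Y-linked gene Ddx3y was at 38.79 to 47.1 CPM in all Sham libraries and in I/R + ML264 libraries 3 and 4. In I/R + ML264 libraries 1 and 2 it was between 0.106 and 0.484 CPM, so Y-linked expression and the groups overlapped only in part. Library 2 of I/R + ML264 stood apart from the others in a multidimensional scaling and had 21851 genes with counts, and the clock gene Arntl was high in Sham libraries 2 and 3. Results without library 2, within the libraries that hold Y-linked transcripts and with Arntl as a covariate follow the counts of called genes and stand beside some of the genes. Whether these differences had a part in the results was not tested.

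Against Sham, 46 of 15952 tested genes (0.288%) passed an edgeR adjusted p of 0.05 in I/R + ML264. Of these 41 rose (0.257%) and 5 fell (0.0313%), and 22 of the higher and 4 of the lower genes changed at least 2-fold. The median log2 fold change of all tested genes was 0.00. In I/R without ML264 the same fit called 1236 genes against Sham (7.75%), 731 higher (4.58%) and 505 lower (3.17%). These counts rest on the same Sham libraries and on the spread within each injured group, and the direct test of I/R + ML264 against I/R called 8 genes (0.0502%), 2 higher (0.0125%) and 6 lower (0.0376%). A gene called only in I/R is therefore not shown to differ between the injured groups. At an unadjusted p under 0.05, 2074 genes differed between I/R + ML264 and Sham, and with the DESeq2 Wald test 370 were called, among them all 46. In 1175 genes (7.37%) the CPM values of the Sham and I/R + ML264 libraries did not overlap, 637 of them higher (3.99%) and 538 lower (3.37%) in I/R + ML264.

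**Figure D1:**
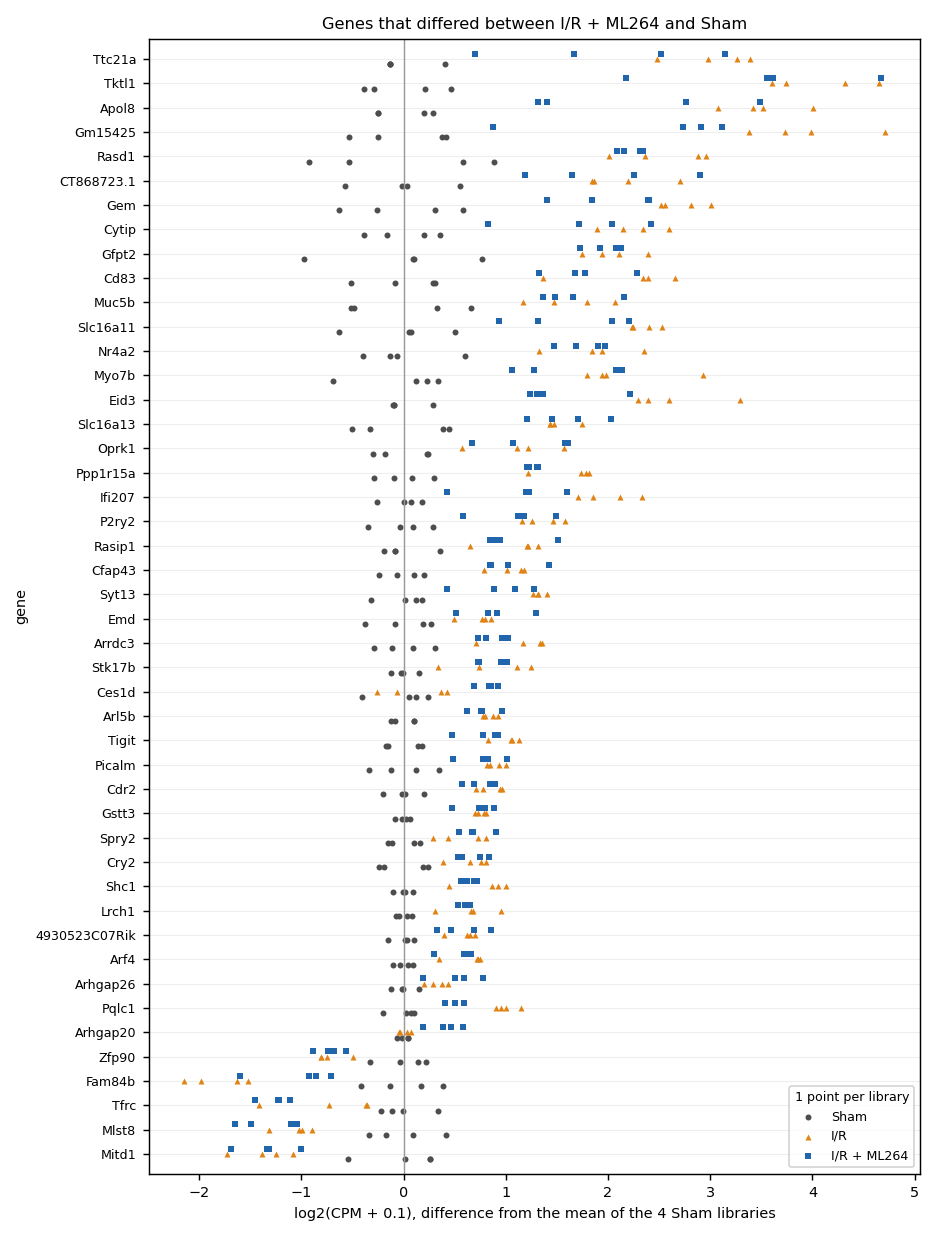
Each row is a called gene, each point a library of Sham, I/R or I/R + ML264, and the horizontal axis is the log2 CPM (with a small constant added) as a difference from the mean of the 4 Sham libraries. In the 41 higher genes the I/R + ML264 points lie to the right of the Sham points, and in the 5 lower genes to the left, while the I/R points of most genes lie on the same side.

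Membership of the called set depended on single libraries. Leaving out Sham library 2, 3 or 4 ended 34, 38 and 38 of the 46 calls, and leaving out I/R + ML264 library 2 or 4 ended 33 and 35. The total then called was 12, 9, 9, 15 and 11. Without I/R + ML264 library 1 or 3, by contrast, 101 and 94 genes were called, and without Sham library 1, 77. The calls of 6 genes held in all 12 fits that left out a library, namely Arl5b, Gem, Gstt3, Ppp1r15a, Slc16a13 and Tktl1, and each of the other calls was lost in at least 1 of them. Within the libraries with Y-linked transcripts, which set 4 Sham against 2 I/R + ML264 libraries, 27 genes were called and 32 of the 46 calls ended. The 14 that held were Arl5b, Ppp1r15a, Nr4a2, Tktl1, Gstt3, Arrdc3, Oprk1, Cd83, Ifi207, Arhgap26, Emd, Eid3, Stk17b and Tfrc. With Arntl as a covariate 37 of the 46 calls ended. The 9 that held were Arl5b, Ppp1r15a, Nr4a2, Gem, Tktl1, Slc16a13, Cytip, Tigit and Cfap43. Without I/R + ML264 library 2, 13 of the 46 calls held. No called gene changed direction in any fit. Of the 46 genes, 17 are named by the rule given under processing, and the others named in the text were chosen after their values were seen.

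The gene with the smallest adjusted p was Arl5b, an ARF-like GTPase of the Golgi apparatus (chr2:15049395-15082456, plus strand, GRCm38). It stood at 42, 35.9, 37 and 42 CPM in Sham libraries 1 to 4 and at 66, 76.2, 60.4 and 66.7 in I/R + ML264 libraries 1 to 4. Every treated library lay above every Sham library, with a log2 fold change of 0.78 ± 0.09 (SE) and adjusted p = 0.000965. In I/R its values were 68, 74.4, 71.9 and 66.9 CPM, and the injured groups were not distinguished (log2 difference -0.06 ± 0.08, adjusted p = 0.842). Ppp1r15a encodes GADD34, the stress-induced subunit that directs a phosphatase to eIF2 alpha (chr7:45522916-45526268, minus strand). Its level was 5.65, 3.73, 4.27 and 4.86 CPM in Sham and 10.7, 11.5, 11.5 and 10.8 in I/R + ML264, a rise of 1.27 ± 0.15 (SE) on the log2 scale with adjusted p = 0.00189. The treated libraries were tightly grouped, above all Sham libraries. Nr4a2 is an orphan nuclear receptor and an immediate early gene (chr2:57106830-57124003, minus strand). It was at 6.83, 4.27, 3.37 and 4.09 CPM in Sham and 14.7, 17.9, 17.1 and 12.6 in I/R + ML264, again without overlap, and its log2 fold change was 1.75 ± 0.24 (SE) with adjusted p = 0.00768. Arl5b and Ppp1r15a were called under every alternative run. The call of Nr4a2 was lost without Sham library 4 (adjusted p = 0.0535) and with the replicate number as a block (adjusted p = 0.0659). Within the libraries with Y-linked transcripts the log2 fold changes were 0.70 (adjusted p = 0.0169) for Arl5b, 1.28 (adjusted p = 0.0162) for Ppp1r15a and 1.69 (adjusted p = 0.0227) for Nr4a2.

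The 250 bases before the annotated start of these genes are shown. Arl5b and Ppp1r15a were the only genes among the 27 higher ones with a matched promoter that held the full cyclic AMP response element TGACGTCA. Nr4a2 held the core TGACG without the full element. So did the higher genes 4930523C07Rik, Cry2, Picalm, Arrdc3 and Arf4, which are not shown, so the core does not set Nr4a2 apart. The sequences are those of RefSeq on GRCm38.p6, 5′ to 3′ on the gene's own strand, and capitals mark the full element and the core (CGTCA where it lies on the other strand). The window of Arl5b is chr2:15055070-15055319 on the plus strand, that of Ppp1r15a is chr7:45526269-45526518 on the minus strand and that of Nr4a2 is chr2:57124004-57124253 on the minus strand. The RefSeq start of Arl5b lies inside the span that GENCODE gives the gene.
Arl5b: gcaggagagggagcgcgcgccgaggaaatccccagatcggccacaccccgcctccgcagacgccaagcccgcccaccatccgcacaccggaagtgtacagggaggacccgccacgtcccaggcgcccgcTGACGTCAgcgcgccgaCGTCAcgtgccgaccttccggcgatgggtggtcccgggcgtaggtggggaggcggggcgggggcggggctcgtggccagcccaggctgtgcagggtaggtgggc
Ppp1r15a: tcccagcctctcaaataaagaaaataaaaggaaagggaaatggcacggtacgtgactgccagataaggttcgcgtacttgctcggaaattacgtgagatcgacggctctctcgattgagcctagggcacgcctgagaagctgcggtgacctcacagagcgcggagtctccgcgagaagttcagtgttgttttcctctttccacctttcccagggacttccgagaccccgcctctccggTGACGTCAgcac
Nr4a2: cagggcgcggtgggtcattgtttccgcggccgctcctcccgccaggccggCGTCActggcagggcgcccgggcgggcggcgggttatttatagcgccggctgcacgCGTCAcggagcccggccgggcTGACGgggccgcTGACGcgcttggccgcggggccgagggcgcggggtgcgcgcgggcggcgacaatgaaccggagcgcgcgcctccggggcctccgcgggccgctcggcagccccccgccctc

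The full element began at position -121 in Arl5b and at position -12 in Ppp1r15a, counted from the base before the start as -1. Over windows of 250 bases before to 50 after the start, searched on both strands, it occurred in 2 of the 27 higher genes with a matched promoter (7.41%), in 3.25% of the promoters of 11449 tested genes and in 2.03% of all 27025. The core, which every full element also contains, was in 29.6% of the higher genes and 32.3% of tested genes. The AP-1 motif TGANTCA was in 7.41% and 6.82%, the CACCC box bound by Krüppel-like and SP factors in 70.4% and 65.4%, and the GC box GGGCGG in 59.3% and 62.5%. The E-box CACGTG was in 18.5% and 10.8%, the NF-kB site in 14.8% and 11.8%, and the CArG box in none of the 27 and in 1.63% of tested genes. With 27 promoters these shares describe letters in a window, and they say nothing of binding. Of the 5 lower genes 3 had a promoter. None of those held the full element, and 2 of the 3 held the core (66.7%).

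**Figure D2:**
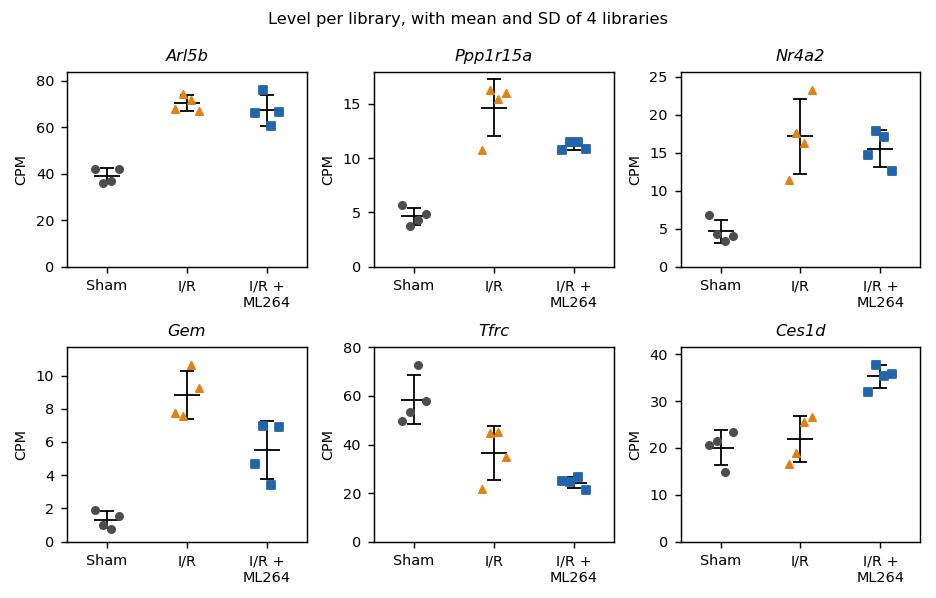
CPM is shown on a linear axis from 0 for each library of Sham, I/R and I/R + ML264, with bars for the mean and SD of 4 libraries, for Arl5b, Ppp1r15a, Nr4a2, Gem, Tfrc and Ces1d. In Arl5b, Ppp1r15a, Nr4a2 and Gem both injured groups lie above Sham, in Tfrc all I/R + ML264 libraries lie below Sham, and in Ces1d the I/R + ML264 libraries lie above both other groups.

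Gem encodes an RGK-family GTPase that inhibits voltage-gated calcium channels (chr4:11704457-11714752, plus strand). It was at 1.9, 1.01, 0.764 and 1.55 CPM in Sham and 4.68, 6.97, 3.43 and 6.92 in I/R + ML264, with a log2 fold change of 2.09 ± 0.28 (SE) and adjusted p = 0.00583, and the groups did not overlap. The I/R libraries had 7.76, 7.55, 10.7 and 9.25 CPM, and the log2 difference between the injured groups was -0.68 ± 0.25 with adjusted p = 0.344. Its call held without any single library, but not within the libraries with Y-linked transcripts, where the log2 fold change was 1.99 (adjusted p = 0.0662). Gem was the only member called among 25 measured genes of calcium handling and ion channels, whose median log2 fold change was 0.14. Kcna5, a voltage-gated potassium channel, rose in I/R (1.45 ± 0.29, adjusted p = 0.0096) and had 0.79 ± 0.29 (adjusted p = 0.253) in I/R + ML264, with overlap with Sham. Kcnj14, another potassium channel gene, was at 0 to 0.181 CPM in Sham and 0.0355, 0.161, 5.84 and 0.309 in I/R + ML264, and did not pass the test (adjusted p = 0.306). A single treated library carried its mean, and 35.6% of its 31-base words also occur in other genes, so its value is uncertain.

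Other higher genes encode signalling proteins. Rasd1, a dexamethasone-induced Ras protein, was at 0.633, 0.109, 0.174 and 0.493 CPM in Sham and 1.92, 1.87, 1.67 and 1.59 in I/R + ML264 (log2 fold change 2.35 ± 0.40, adjusted p = 0.0204). Arrdc3, an arrestin-domain protein, was at 28.3, 21.1, 18.6 and 24.3 and 39.8, 46.4, 37.8 and 44.6 CPM, and its log2 fold change was 0.87 ± 0.15. Spry2, an inhibitor of receptor tyrosine kinase signalling, had 0.71 ± 0.14 on the log2 scale, and Shc1, an adaptor of such receptors, 0.65 ± 0.12. P2ry2, a receptor for extracellular nucleotides, was at 11, 7.03, 8.75 and 9.58 CPM in Sham and 19.6, 25.5, 13.4 and 20.5 in I/R + ML264. This was a rise of 1.12 ± 0.18 on the log2 scale with adjusted p = 0.0169, and no treated library reached down to the Sham range. Oprk1, the kappa opioid receptor, rose by 1.31 ± 0.26 (adjusted p = 0.0425), and was at 1.34 to 1.99 CPM in Sham and 2.71 to 5.29 in I/R + ML264. Rasip1, a Ras-interacting protein of endothelial cells, was at 7.42, 5.43, 5.04 and 5.43 and 10.8, 16.6, 10.4 and 11.2 CPM, a log2 fold change of 1.08 ± 0.18, and 18.8% of its 31-base words are shared with other genes. The call of Oprk1 was lost without Sham libraries 2, 3 or 4, I/R + ML264 libraries 3 or 4 or I/R libraries 2 or 4 (adjusted p between 0.0568 and 0.144), that of P2ry2 without Sham libraries 2, 3 or 4 or I/R + ML264 library 4 (adjusted p between 0.0556 and 0.0848) and that of Rasd1 without Sham libraries 2, 3 or 4 or I/R + ML264 libraries 2 or 4 (adjusted p between 0.0516 and 0.0923). The calls of Arrdc3 and Rasip1 were each lost without Sham library 2, 3 or 4 and without I/R + ML264 library 2 or 4, with adjusted p up to 0.0991. Spry2 lost its call without Sham libraries 2, 3 or 4, I/R + ML264 libraries 1, 2, 3 or 4 or I/R libraries 2, 3 or 4 (adjusted p between 0.0512 and 0.16) and Shc1 without Sham libraries 2, 3 or 4 or I/R + ML264 libraries 2 or 4 (adjusted p between 0.0536 and 0.0986).

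Transporters and enzymes among the higher genes are described next, a grouping made after their values were seen. Slc16a11 and Slc16a13, members of the monocarboxylate transporter family, lie next to each other on opposite strands of chromosome 11 (chr11:70212752-70216417, plus strand, and chr11:70216789-70221064, minus strand). Slc16a13 was at 3.3, 1.74, 1.98 and 3.45 CPM in Sham and 10.6, 8.43, 5.92 and 7.06 in I/R + ML264, and rose by 1.62 ± 0.23 (SE) on the log2 scale with adjusted p = 0.00583. Slc16a11 was at 1.31, 0.543, 0.938 and 0.951 and 4.51, 4, 2.38 and 1.81 CPM, with 1.78 ± 0.30 and adjusted p = 0.0174. In both genes the groups did not overlap, and the spans of the 2 genes do not overlap either. Tktl1, a transketolase-like gene on the X chromosome, was near the detection limit in Sham, with 9 counts over the 4 libraries. It was at 0.0452, 0.145, 0.104 and 0.0352 CPM in Sham and 1.99, 4.42, 0.701 and 2.07 in I/R + ML264, and its fitted log2 fold change was 4.71 ± 0.62 with adjusted p = 0.00583. Gstt3, a theta-class glutathione S-transferase, was at 8.87, 8.66, 8.02 and 8.42 CPM in Sham and 11.8, 15.8, 14.2 and 14.8 in I/R + ML264, a narrow spread in both groups, and rose by 0.74 ± 0.11 (adjusted p = 0.00768). Gfpt2, which opens the hexosamine pathway from fructose 6-phosphate, was at 25.8, 7.64, 16.1 and 16.2 CPM in Sham and 57.4, 64.2, 50.2 and 66.1 in I/R + ML264. Its log2 fold change was 1.86 ± 0.30 (adjusted p = 0.0454), and the lowest treated library was well above the highest Sham library. Ces1d, a carboxylesterase, was at 20.6, 21.5, 14.9 and 23.4 CPM in Sham, 16.5, 18.9, 25.6 and 26.7 after I/R alone and 32, 37.8, 35.4 and 35.9 in I/R + ML264. It rose by 0.81 ± 0.15 against Sham (adjusted p = 0.0393), while I/R had 0.13 ± 0.16 (adjusted p = 0.686), and the direct test of the injured groups did not pass (0.69 ± 0.15, adjusted p = 0.135). Slc16a13, Tktl1 and Gstt3 kept their calls without any single library. The call of Slc16a13 was lost within the libraries with Y-linked transcripts, at 1.31 (adjusted p = 0.076), that of Gstt3 with Arntl as a covariate, at 0.69 (adjusted p = 0.0726), and that of Tktl1 under limma voom with library weights, at 4.35 (adjusted p = 0.101). The call of Slc16a11 was lost without Sham libraries 2, 3 or 4 or I/R + ML264 library 2 (adjusted p between 0.0516 and 0.0831), that of Gfpt2 without Sham libraries 3 or 4, I/R + ML264 libraries 1, 2 or 4 or I/R libraries 1, 2, 3 or 4 (adjusted p between 0.0541 and 0.156) and that of Ces1d without Sham libraries 1, 2, 3 or 4, I/R + ML264 libraries 2, 3 or 4 or I/R library 2 (adjusted p between 0.0523 and 0.126).

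Cd83, an activation marker of dendritic cells and lymphocytes, was at 0.724, 1.01, 1.35 and 1.34 CPM in Sham and 3.94, 5.65, 2.84 and 3.66 in I/R + ML264 (log2 fold change 1.85 ± 0.30, adjusted p = 0.0169). Cytip, a cytohesin-interacting protein of leukocytes, was at 0.498, 0.905, 0.799 and 0.599 and 2.48, 4.1, 1.29 and 3.13 CPM (log2 fold change 1.96 ± 0.32, adjusted p = 0.017). Neither gene overlapped between the groups. Tigit, an inhibitory receptor of T and natural killer cells, was at 10.4, 10.1, 8.27 and 8.14 CPM in Sham and 17.5, 15.8, 12.8 and 17.1 in I/R + ML264, a log2 fold change of 0.78 ± 0.13 with adjusted p = 0.0169. Ifi207, an interferon-inducible gene of the HIN-200 family, was at 11.7, 10.9, 10.4 and 8.6 CPM in Sham, 34, 37.5, 45.1 and 52.4 after I/R alone and 13.9, 31.4, 23.8 and 24.3 in I/R + ML264. Its rise of 1.17 ± 0.22 (adjusted p = 0.0468) was carried mostly by treated libraries 2 to 4, with library 1 close to the Sham range, and 14.8% of its 31-base words are shared with related genes. In whole tissue, more cells of a type and more RNA per cell cannot be told apart. Apol8, an apolipoprotein L gene, had 2 counts in Sham, 133 after I/R alone and 65 in I/R + ML264, a ratio of treated to Sham of 32.3 with a 95% counting interval of 8.59 to 272. The call of Cd83 was lost without Sham libraries 2, 3 or 4 (adjusted p between 0.0513 and 0.0601), that of Cytip without Sham libraries 3 or 4 or I/R + ML264 libraries 2 or 4 (adjusted p between 0.0516 and 0.0709), that of Tigit without Sham libraries 3 or 4 or I/R + ML264 library 4 (adjusted p between 0.0656 and 0.0831) and that of Ifi207 without Sham libraries 1, 2, 3 or 4, I/R + ML264 libraries 2, 3 or 4 or I/R libraries 2 or 3 (adjusted p between 0.0573 and 0.16). Apol8 lost its call without Sham libraries 2, 3 or 4 or I/R + ML264 libraries 2 or 4 (adjusted p between 0.087 and 0.108).

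Arhgap20 and Arhgap26 encode GTPase-activating proteins. Arhgap20 was at 62.9, 58.3, 60.3 and 62.7 CPM in Sham, 64.4, 59.3, 62.5 and 59.6 after I/R alone and 69.6, 91.5, 79.8 and 84.4 in I/R + ML264. It was higher against Sham (0.41 ± 0.08, adjusted p = 0.0391) and had 0.01 ± 0.08 in I/R (adjusted p = 0.964), but the direct difference of 0.40 ± 0.08 did not pass (adjusted p = 0.084). Arhgap26 was at 96.4, 85.7, 79.7 and 86.4 and 99.4, 149, 123 and 131 CPM in Sham and I/R + ML264 (0.53 ± 0.10, adjusted p = 0.0371). Picalm, which assembles clathrin coats, was at 149, 92.5, 107 and 127 CPM in Sham and 201, 237, 164 and 208 in I/R + ML264, with 0.77 ± 0.13 on the log2 scale. Arf4, a GTPase of vesicle traffic, had 0.55 ± 0.11, and Syt13, a synaptotagmin, 0.96 ± 0.17. These values are all above Sham, at adjusted p = 0.0288, 0.0491 and 0.0288. Emd encodes emerin of the nuclear envelope and rose by 0.91 ± 0.17 (adjusted p = 0.0316), and 18.9% of its words are shared. Cfap43, a component of ciliary axonemes, was at 3.12, 4.27, 3.96 and 3.52 CPM in Sham and 6.74, 10.1, 6.78 and 7.63 in I/R + ML264 (1.07 ± 0.16, adjusted p = 0.012). Ttc21a, of the transport system within cilia, had 1 count in Sham and 48 in I/R + ML264, a ratio of 47.7 with a 95% counting interval of 8.16 to 1920. Myo7b, a myosin of microvilli, was at 1.45, 1.34, 0.66 and 1.23 CPM in Sham and 2.87, 5.29, 2.45 and 5.07 in I/R + ML264 (1.75 ± 0.34, adjusted p = 0.0468). Eid3 was at 0.86, 0.869, 0.868 and 1.16 and 2.34, 4.68, 2.45 and 2.56 CPM (1.68 ± 0.29, adjusted p = 0.0204). The Eid3 gene (chr10:82866626-82867930, plus strand) lies within the span of Txnrd1 on the same strand, so reads from the longer gene cannot be told apart where they fall inside it. The call of Cfap43 was lost without Sham library 4 (adjusted p = 0.0546), that of Eid3 without Sham libraries 2, 3 or 4 or I/R + ML264 libraries 2 or 4 (adjusted p between 0.0523 and 0.0923), that of Myo7b without Sham libraries 1, 2, 3 or 4, I/R + ML264 libraries 2 or 4 or I/R libraries 2, 3 or 4 (adjusted p between 0.0551 and 0.156) and that of Arhgap20 without Sham libraries 2, 3 or 4, I/R + ML264 libraries 2 or 4 or I/R libraries 2, 3 or 4 (adjusted p between 0.0523 and 0.138). Ttc21a and Emd lost theirs without Sham libraries 2, 3 or 4, I/R + ML264 libraries 2 or 4 or I/R libraries 1, 2, 3 or 4 (adjusted p between 0.0579 and 0.156) and without Sham libraries 2, 3 or 4, I/R + ML264 libraries 3 or 4 or I/R library 3 (adjusted p between 0.0512 and 0.124), and Arhgap26, Picalm, Arf4 and Syt13 each without 5 or more of the 12 libraries.

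The remaining 8 higher genes had log2 fold changes from 0.52 ± 0.10 for Pqlc1, a membrane protein, to 3.19 ± 0.56 for the predicted gene Gm15425. Pqlc1 was at 11.7 to 14.5 CPM in Sham, 25.4 to 29.9 after I/R alone and 17.9 to 20.3 in I/R + ML264, so the treated libraries lay between the other groups, and the direct difference from I/R was -0.48 ± 0.10 (adjusted p = 0.084). Stk17b, a kinase related to the death-associated protein kinases, was at 12.9, 10.6, 11.4 and 11.5 CPM in Sham and 19.3, 23.4, 19.3 and 22.6 in I/R + ML264 (0.87 ± 0.16). Muc5b, a secreted mucin, stood at 0.679, 0.254, 0.521 and 0.247 and 1.45, 2.1, 1.17 and 1.28 CPM. Cdr2, Lrch1, 4930523C07Rik and CT868723.1 had 0.76 ± 0.14, 0.60 ± 0.11, 0.60 ± 0.11 and 2.32 ± 0.40. The groups of each of these 8 genes did not overlap, and all 8 calls were lost without Sham library 3 or 4.

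Cry2, a repressor of the circadian clock, was the only called gene among 19 measured clock genes and outputs. It was at 20.5, 15.2, 14.7 and 19.8 CPM in Sham, 22.8, 29.5, 30.4 and 27.3 after I/R alone and 25.9, 29.2, 25.2 and 31 in I/R + ML264, a rise of 0.67 ± 0.13 against Sham with adjusted p = 0.0316. The list had a median log2 fold change of 0.37 against 0.00 over all genes, and 0.09 with Arntl as a covariate, where Cry2 had 0.48 (adjusted p = 0.185). Bhlhe40, a repressor that also responds to stress, was at 36.9, 16.3, 20.1 and 37.5 CPM in Sham and 59.1, 65.3, 44.9 and 58.8 in I/R + ML264 (1.04 ± 0.37, adjusted p = 0.273), and Nfil3 had 0.59 ± 0.28. Both were called in I/R against Sham, at 1.65 ± 0.38 and 1.29 ± 0.28, and neither was called between the injured groups (adjusted p = 0.612 and 0.362). The call of Cry2 was also lost without Sham libraries 2, 3 or 4, I/R + ML264 libraries 2 or 4 or I/R library 2 (adjusted p between 0.0505 and 0.127).

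The 5 lower genes shared no list. Tfrc encodes the transferrin receptor, which brings iron into cells (chr16:32608920-32632794, plus strand). It was at 49.7, 53.5, 72.9 and 57.8 CPM in Sham, 21.7, 44.9, 45 and 34.9 after I/R alone and 24.9, 24.7, 26.7 and 21.1 in I/R + ML264, the last group with the narrowest range. Against Sham its log2 fold change was -1.26 ± 0.21 (SE) with adjusted p = 0.0308 in I/R + ML264 and -0.68 ± 0.20 with adjusted p = 0.0654 in I/R, and the direct difference did not pass (-0.59 ± 0.20, adjusted p = 0.338). Mlst8, a subunit of the mTOR complexes, was at 4.25, 2.79, 3.37 and 2.47 CPM in Sham and 1.42, 0.936, 1.48 and 1.06 in I/R + ML264 (-1.39 ± 0.24, adjusted p = 0.0204). It shares 25.5% of its 31-base words with its opposite-strand neighbour Bricd5, and the kit does not mark strand, so its value is uncertain. Zfp90, a zinc-finger protein, was at 10.5, 14.6, 15.4 and 12.9 CPM in Sham and 8.94, 7.13, 7.91 and 8.2 in I/R + ML264 (-0.73 ± 0.14, adjusted p = 0.0308), and Mitd1, of the final step of cell division, at 2.85, 2.39, 2.85 and 1.59 and 0.887, 0.872, 1.13 and 0.661 (-1.44 ± 0.27, adjusted p = 0.0316). In both genes all treated libraries lay below all Sham libraries. Fam84b was at 7.33, 12.8, 11 and 8.91 CPM in Sham, 3.11, 3.34, 2.41 and 2.13 after I/R alone and 5.11, 3.16, 5.37 and 5.95 in I/R + ML264, a log2 fold change of -1.04 ± 0.21 close to the threshold (adjusted p = 0.0491). The call of Tfrc was lost without Sham libraries 2, 3 or 4, I/R + ML264 libraries 2 or 4 or I/R library 4 (adjusted p between 0.0566 and 0.111), that of Mlst8 without Sham libraries 2 or 3 or I/R + ML264 libraries 2 or 4 (adjusted p between 0.0504 and 0.0991), that of Zfp90 without Sham libraries 2, 3 or 4 or I/R + ML264 libraries 2 or 4 (adjusted p between 0.0874 and 0.116), that of Mitd1 without Sham libraries 1, 2 or 3 or I/R + ML264 libraries 2 or 4 (adjusted p between 0.0567 and 0.123) and that of Fam84b without Sham libraries 2, 3 or 4, I/R + ML264 libraries 1, 2, 3 or 4 or I/R libraries 1, 2, 3 or 4 (adjusted p between 0.0528 and 0.164).

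Of the immediate early genes only Nr4a2 passed the test. All 29 measured members had a positive log2 fold change in I/R + ML264 against Sham, with a median of 1.75 against 0.00 over all genes, and 19 of them did not overlap between the groups (3.99% of all genes were higher without overlap). Summed over the list, the Sham libraries held 128 to 784 CPM and the I/R + ML264 libraries 1220 to 1500. Fos, a subunit of AP-1, was at 13, 0.0724, 0.556 and 2.57 CPM in Sham and 22, 34.4, 24.8 and 47.3 in I/R + ML264, so that Sham library 1 was several times above the other Sham libraries and still below every treated library. Its log2 fold change was 3.05 ± 1.10 (SE), with adjusted p = 0.279. Egr1, a zinc-finger factor of the growth response, was at 224, 12.4, 39.4 and 108 CPM in Sham and 475, 422, 469 and 503 in I/R + ML264 (2.29 ± 0.81, adjusted p = 0.27). Nr4a3, a relative of Nr4a2, was at 18.2, 2.97, 2.12 and 4.79 and 46, 60.5, 50.2 and 51.5 CPM (2.92 ± 0.61, adjusted p = 0.114). In these genes, too, Sham library 1 was highest of its group and the treated libraries were close to each other. Nr4a2 differed from its relatives mainly in the narrow Sham range, 3.37 to 6.83 CPM, set beside 2.12 to 18.2 for Nr4a3 and 0.616 to 25.2 for Nr4a1. Fosl2, a Fos-related subunit, was at 27, 13.8, 18.1 and 21.4 CPM in Sham and 54.7, 90.2, 48.3 and 68 in I/R + ML264 (1.70 ± 0.31, adjusted p = 0.0708). Atf3 was at 15.2, 0.326, 0.66 and 2.61 and 16.1, 19.9, 13.6 and 23.5 CPM, with Sham library 1 inside the treated range. Gadd45b, of the growth arrest and DNA damage family, had 1.26 ± 0.36 (adjusted p = 0.138). Fosl1 and Jund stayed at 0.485 to 1.1 and 0.351 to 0.922 CPM in I/R + ML264, with log2 fold changes of 0.04 ± 0.39 and 0.06 ± 0.39.

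**Figure D3:**
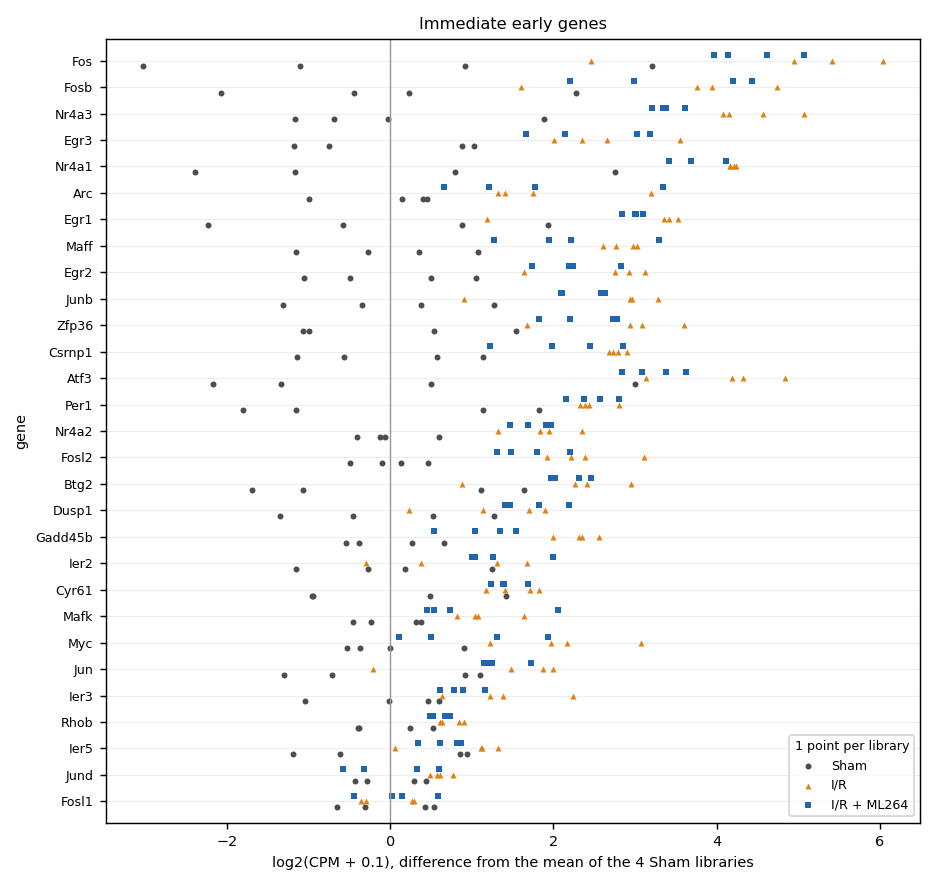
Each row is an immediate early gene and each point a library of Sham, I/R or I/R + ML264, placed by its log2 CPM (with a small constant added) as a difference from the mean of the 4 Sham libraries. The Sham points spread widely, and in 19 of the 29 genes all I/R + ML264 libraries lie to the right of all Sham libraries.

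In I/R without ML264, 13 of the same 29 genes were called higher against Sham, where 4.58% of all genes were, with a median of 2.32. Of the genes called there, Fosl2 had 2.45 ± 0.32 and Gadd45b 2.48 ± 0.35. For neither was a difference between the injured groups shown (adjusted p = 0.431 and 0.174). None of the 29 was called between the injured groups, where the list's median was -0.31. The median against Sham was 1.67 without I/R + ML264 library 2, 1.69 within the libraries with Y-linked transcripts and 1.37 with Arntl as a covariate.

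Glucocorticoid-responsive genes had the next highest median among the lists of responses, 1.30 over 14 genes, 12 of them positive, none called and 3 higher without overlap (3.99% of all genes). Errfi1, a feedback inhibitor of the EGF receptor, was at 72.4, 15.6, 19.5 and 37.4 CPM in Sham and 142, 214, 113 and 139 in I/R + ML264 (2.07 ± 0.47, adjusted p = 0.123). Klf9, a Krüppel-like factor induced by steroids, was at 26.9, 15.6, 13 and 21.1 and 27.9, 30.9, 29.6 and 32.1 CPM, where the lowest treated library was just above the highest Sham library (0.66 ± 0.17, adjusted p = 0.126). Mt2, a metallothionein, was at 0.905, 0.181, 0.452 and 0.775 CPM in Sham and 0.851, 3.16, 1.01 and 2.51 in I/R + ML264, with overlap. All 3 were called in I/R against Sham (log2 fold changes 2.19 ± 0.47, 0.90 ± 0.17 and 2.68 ± 0.51) and none between the injured groups (adjusted p = 0.954, 0.647 and 0.494). Over the 12 measured Krüppel-like factors, none was called and the median was 0.26, and Klf7 had 0.36 ± 0.10 (adjusted p = 0.138). Without I/R + ML264 library 2 the median of the glucocorticoid list was 1.02.

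None of the lists of inflammatory genes held a called gene in I/R + ML264 against Sham in the main fit. Without I/R + ML264 library 2, where 15 genes were called, 1 gene of the IL-6 family list was called higher. Within the libraries with Y-linked transcripts, where 27 genes were called, 1 of that list and 1 adhesion molecule were called higher. Il6, the cytokine interleukin 6, had 2 counts in Sham, 689 after I/R alone and 296 in I/R + ML264. The ratio of treated to Sham was 147, with a 95% counting interval of 40.4 to 1220. The treated libraries ranged from 0.428 to 6.68 CPM, all above Sham, and the adjusted p of the fit was 0.0819. Cxcl2, a chemokine for neutrophils, was at 1.13, 0.0362, 0.0695 and 0.352 CPM in Sham and 5.14, 9.98, 2.34 and 11.8 in I/R + ML264 (4.30 ± 0.85, adjusted p = 0.0912). Sele, the endothelial selectin that captures leukocytes, was at 0.498, 0.543, 0.625 and 0.846 CPM in Sham, 6.48, 8.57, 14 and 21.6 after I/R alone and 2.06, 7.94, 1.64 and 3.84 in I/R + ML264. Its groups against Sham did not overlap (2.61 ± 0.62, adjusted p = 0.126), and treated library 2 was the highest of its group for Il6 and Sele. Icam1, another adhesion molecule, was at 5.88, 5.32, 5.66 and 4.93 and 6.03, 13, 5.18 and 9.44 CPM in Sham and I/R + ML264 (0.63 ± 0.23, adjusted p = 0.26). Ccl3, a macrophage chemokine, was at 0 to 0.141 CPM in Sham and 0.142 to 0.428 in I/R + ML264. Birc3 and Nfkbia, induced by NF-kB and acting in its feedback, had 0.74 ± 0.18 (adjusted p = 0.107) and 1.10 ± 0.33 (adjusted p = 0.173). Il6ra, the receptor of interleukin 6, had 0.51 ± 0.13 (adjusted p = 0.114). Over 25 alternative fits Il6 was called in 6, Cxcl2 and Sele in 3 each, Birc3, Nfkbia and Il6ra in 2 each and Icam1 in 0.

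By list, 14 of 16 chemokines and cytokines were positive with a median of 0.83, and 5 were higher and 1, Csf1, lower without overlap, against 3.99% and 3.37% of all genes. Of 18 genes of the IL-6 family, its receptors and STAT3 feedback, 17 were positive (median 0.24, 5 higher without overlap). Of 16 NF-kB subunits and feedback genes 15 were positive (median 0.53, 4 higher without overlap), and of 8 adhesion molecules 7 (median 0.13, 1 higher without overlap). In I/R against Sham these lists had 4, 6, 8 and 4 higher calls (4.58% of all genes were called higher) and 1 lower call, of the adhesion molecule list (3.17% of all genes), with medians of 0.95, 0.52, 0.81 and 0.91. Between the injured groups Il6, Cxcl2, Sele, Icam1, Birc3 and Nfkbia had adjusted p = 0.524, 0.67, 0.297, 0.306, 0.187 and 0.506, so no difference was shown. Without I/R + ML264 library 2 the medians of the 4 lists were 0.73, 0.18, 0.34 and 0.18, and that of the NF-kB list was 0.25 within the libraries with Y-linked transcripts. Zc3h12a and Zfp36, which destroy inflammatory mRNAs, had 0.94 ± 0.29 and 2.03 ± 0.64 in I/R + ML264 (adjusted p = 0.172 and 0.224), and both lay above Sham in every treated library. The median of the 10 mRNA decay factors was 0.04. Cebpd, an acute-phase transcription factor, had 1.51 ± 0.51 (adjusted p = 0.231), and the 5 C/EBP factors a median of 0.07. Of 23 interferon-stimulated and antigen presentation genes none was called (median 0.11), and Irf1 had 0.29 ± 0.29.

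Lists of cell stress and cell death had medians of 0.03 to 0.24, against 0.00 for all genes, with single members that changed. Ppp1r15a was the only called gene of 15 in the integrated stress response, 10 of which were positive (median 0.14). Atf4, the response's main transcription factor, was at 11.4, 7.06, 7.23 and 11 CPM in Sham and 11.1, 11.9, 11.2 and 9.17 in I/R + ML264, overlapping (0.24 ± 0.16, adjusted p = 0.548), and its target Slc3a2, an amino acid transporter subunit, had 0.32 ± 0.13. The 18 endoplasmic reticulum chaperones and unfolded protein response genes held no call (median 0.06). Nor did 20 cytosolic heat shock proteins (median 0.03), among which the co-chaperone Bag3 had 0.19 ± 0.10, nor 21 NRF2 targets (median 0.05). Hmox1, haem oxygenase of the last list, was at 1.13, 1.38, 1.7 and 0.916 CPM in Sham, 3, 2.48, 3.74 and 7.08 after I/R alone and 1.38, 2.13, 1.56 and 2.51 in I/R + ML264. The treated values overlapped Sham, and the direct difference of -1.11 ± 0.31 from I/R did not pass (adjusted p = 0.211). Among 16 p53 targets and growth arrest genes, Plk3, a stress-responsive kinase, was at 1.72, 0.507, 1.29 and 1.66 CPM in Sham and 3.51, 3.87, 2.88 and 4.01 in I/R + ML264 (1.47 ± 0.31, adjusted p = 0.0647), above Sham in all treated libraries. Tnfrsf10b, a death receptor, had 0.59 ± 0.20, and the list a median of 0.24. Bcl2l1, which protects mitochondria from apoptosis, was at 4.21, 3.88, 2.64 and 4.05 and 4.75, 12.7, 4.95 and 10.5 CPM (1.16 ± 0.38, adjusted p = 0.224), in a BCL2 family with a median of 0.07 over 14 genes. Of 17 genes of pyroptosis, necroptosis and ferroptosis, Tfrc was the only one called. Nlrp3, the inflammasome sensor, and Ripk1, the necroptosis kinase, had 1.36 ± 0.55 and 0.43 ± 0.23. Both had been called in I/R (2.15 ± 0.55 and 1.20 ± 0.23), and neither was called between the injured groups (adjusted p = 0.615 and 0.278).

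Matrix, growth factor and signalling lists held no called gene. Plaur, the urokinase receptor, was at 1.09, 0.29, 0.486 and 1.9 CPM in Sham and 3.23, 10.9, 2.73 and 5.95 in I/R + ML264 (2.61 ± 0.66, adjusted p = 0.147), and Adamts9, a matrix protease, at 64.9, 56.3, 65.7 and 50.9 and 102, 217, 68 and 119.9 (1.09 ± 0.32, adjusted p = 0.188). Both were above Sham in every treated library. They belong to 23 matrix and fibrinolysis genes with a median of 0.12. Skil, a feedback inhibitor of TGF-beta signalling, was at 40.8, 25.4, 31.8 and 35.4 and 53.7, 60.9, 42 and 53.8 CPM (0.66 ± 0.15, adjusted p = 0.105), and Tgfb2 had 0.37 ± 0.12, in a list with a median of 0.24. The angiogenic receptors Nrp1 and Tek had -0.34 ± 0.14 and -0.22 ± 0.11 in I/R + ML264 and had fallen in I/R (-0.59 ± 0.14 and -0.45 ± 0.11), with a list median of -0.17. The MAPK phosphatases Dusp5 and Dusp16 had 0.92 ± 0.44 and 0.31 ± 0.12 (list median 0.29), and the 12 EGF family genes a median of -0.06. Irs2, an adaptor of the insulin receptor, was at 12.8, 6.99, 4.9 and 9.09 CPM in Sham, 66.9, 52.7, 53.7 and 123 after I/R alone and 21.1, 54.9, 21 and 29.4 in I/R + ML264. All treated libraries exceeded Sham, but the adjusted p was 0.129, and the direct difference from I/R had adjusted p = 0.359. Igfbp5 of the same list had -0.31 ± 0.10, and the list's median was 0.07. Crem, a repressor and activator of cyclic AMP response elements, was at 4.34, 4.74, 5.73 and 4.9 CPM in Sham and 7.41, 7.17, 6.74 and 8.03 in I/R + ML264, without overlap (0.57 ± 0.14, adjusted p = 0.0946). Pde4b, which degrades cyclic AMP, had 0.69 ± 0.27 (adjusted p = 0.32), and the 17 beta-adrenergic and cyclic AMP genes a median of 0.04.

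Metabolic and contractile lists, apart from the mitochondrially encoded mRNAs described below, lay close to the median of all genes, and no member was called against Sham. Fatty acid oxidation and PPAR targets had a median of 0.08 over 28 genes. Slc25a20, the mitochondrial carnitine carrier, was at 40.9, 34.2, 37.6 and 42.2 CPM in Sham, 28.9, 31.1, 33.2 and 30.9 after I/R alone and 36.9, 34.4, 39.5 and 40.3 in I/R + ML264, so the treated libraries lay in the Sham range, and the direct difference from I/R did not pass (0.28 ± 0.09, adjusted p = 0.266). Ucp2, a mitochondrial carrier, had 0.56 ± 0.20. Ppargc1a, the coactivator that drives mitochondrial genes, was at 302, 241, 194 and 243 CPM in Sham, 1134, 508, 430.0 and 641 after I/R alone and 252, 552, 332 and 369.7 in I/R + ML264 (against Sham 0.62 ± 0.33, adjusted p = 0.482). The 24 sphingolipid genes had a median of 0.06. Sphk1, which makes sphingosine 1-phosphate, and Sgms1, a sphingomyelin synthase, had 1.21 ± 0.34 and 0.58 ± 0.15 (adjusted p = 0.148 and 0.129). Among 24 hypoxia and glycolysis genes the median was 0.08, and Pfkfb3 and Hk2, which speed and begin glycolysis, had 0.70 ± 0.29 and 0.19 ± 0.10. The 10 PGC-1 and ERR genes, 14 NADPH oxidases and superoxide scavengers, and 36 nuclear respiratory chain subunits had medians of 0.10, 0.08 and 0.08. Of the 15 fetal and wall stress genes, Fhl2, a LIM-domain protein of the sarcomere, was at 77.4, 84.5, 74.7 and 74.9 CPM in Sham and 85.3, 118, 101 and 94.6 in I/R + ML264 (0.36 ± 0.09, adjusted p = 0.114). Xirp1, of the intercalated disc, had 0.33 ± 0.23, and the list a median of 0.02. Autophagy and lysosome genes (0.03 over 22), ribosomal proteins (0.13 over 50) and splicing regulators (0.03 over 34) had medians near 0 with no call. Of these, Lamp2 had 0.09 ± 0.06, Rpl37a -0.06 ± 0.18, Tra2b 0.27 ± 0.10 and Rbm5 -0.29 ± 0.10, and all 4 had been called in I/R.

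**Figure D4:**
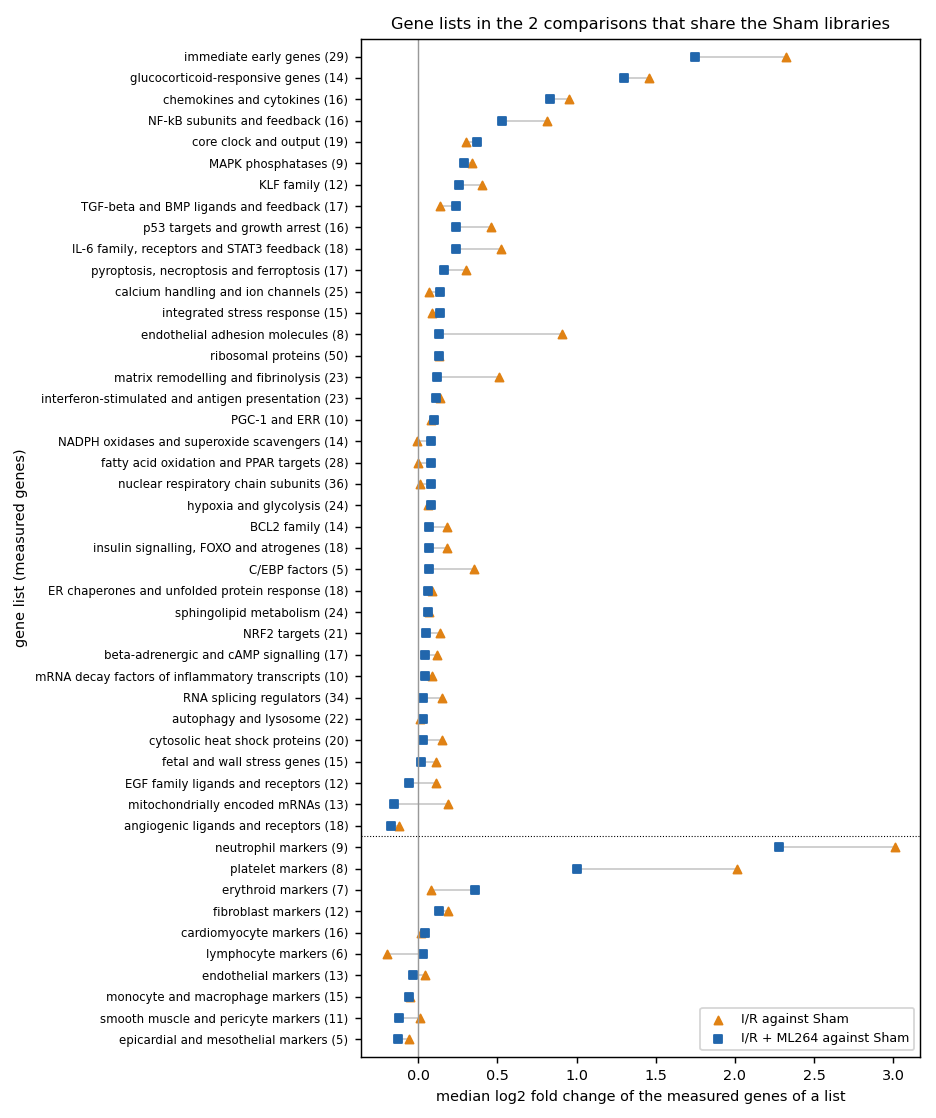
For each list with 5 or more measured genes the horizontal axis gives the median log2 fold change in I/R + ML264 against Sham (squares) and in I/R against Sham (triangles), comparisons that share the Sham libraries, with cell type markers under the dotted line. Above that line, immediate early genes (1.75 in I/R + ML264) and glucocorticoid-responsive genes (1.30) lie farthest to the right, and among the markers the neutrophil list does (2.28).

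Over all lists, 72 genes were called in I/R against Sham and not in I/R + ML264 against Sham among those the naming rule takes. Of these only Atp6v1h, mt-Nd1 and mt-Nd2 were called in the direct test of the injured groups, where 0.0502% of all genes were. There the 72 had adjusted p between 0.0091 and 0.954. By DESeq2, 26 of the 72 were called in I/R + ML264 against Sham, where 370 of all 15952 tested genes were. The 72 were picked by calls of I/R against the same Sham libraries, so a higher share among them is partly built in. For most of the 72 neither a return to the Sham level nor a difference from I/R was shown.

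The 8 genes called between the injured groups give the other side of the comparison, and none of them was called against Sham. Atp6v1h, a subunit of the proton pump of lysosomes, was at 16, 15.9, 17 and 14.6 CPM in Sham, 31.3, 34.2, 29.6 and 32.8 after I/R alone and 20.8, 19.2, 20.3 and 21.3 in I/R + ML264. The treated libraries thus lay between the other groups without touching either, with -0.65 ± 0.09 against I/R (adjusted p = 0.0091) and 0.36 ± 0.09 against Sham (adjusted p = 0.0942). Itpkb, a kinase of inositol trisphosphate, was at 149.5, 117, 140.4 and 139.7 CPM in Sham, 73.1, 84.4, 67.7 and 67.7 after I/R alone and 145, 102, 133 and 144 in I/R + ML264, so that the treated libraries overlapped Sham and lay above every I/R library. Nexn, a protein of the sarcomere's Z-disc, was at 487, 396, 384 and 377 CPM in Sham, 594, 604, 588 and 581 after I/R alone and 414, 465, 414 and 385 in I/R + ML264. Its treated range overlapped Sham and lay below I/R. The log2 fold changes against Sham were -0.06 ± 0.11 for Itpkb, 0.03 ± 0.08 for Nexn, 0.03 ± 0.07 for the splicing regulator Rbm25, 0.24 ± 0.08 for the RNA-binding protein Ilf2 and 0.20 ± 0.10 for Gm15500. For mt-Nd1 and mt-Nd2, complex I subunits encoded in mitochondria, they were -0.03 ± 0.09 and -0.21 ± 0.09. Of the 13 mitochondrially encoded mRNAs 1 had a positive fold change against Sham, with a median of -0.15, and none was called. Of the 13, 3 were lower than Sham without overlap (3.37% of all genes). Against I/R the median was -0.40.

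Of the markers of other cell types, neutrophil markers were measured for 9 of 14 genes, all 9 with positive fold changes, none called and a median of 2.28. Of the 9, 1 was higher without overlap (3.99% of all genes). A gene scarce in Sham can pass the filter through the injured libraries alone, as Trem1 did. The positive signs and the median of this list, and of others with such members, therefore depend in part on the filter. Summed, the markers ranged from 6.02 to 8.84 CPM in Sham and from 6.78 to 24.6 in I/R + ML264. Libraries 2 and 4 of I/R + ML264 were the high ones. By mean log2 level of the 9 genes, libraries 1 and 3 (-0.99 and -1.02) lay inside the Sham range (-1.49 to -0.85). Without library 2 the median was 1.65. Of the markers below the filter, the granule protein gene S100a8 had 0 counts in Sham, 29 after I/R alone and 26 with ML264. In the same order S100a9 had 4, 37 and 34, Ly6g had 0, 2 and 5, and Hcar2 had 6, 23 and 4. Elane was under 3 counts in every library. Trem1, an activating receptor of myeloid cells, was at 0.0452, 0.0362, 0 and 0.0705 CPM in Sham and 0.0709, 0.549, 0.273 and 0.706 in I/R + ML264 (3.25 ± 0.94, adjusted p = 0.149), and Clec4e had 0.89 ± 0.44. The part of neutrophils in the levels of Cd83, Cytip, Il6 and Cxcl2 was not tested.

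Platelet markers had a median of 1.00 over 8 of 10 genes, with 13.8 to 38.4 summed CPM in Sham and 16.7 to 147 in I/R + ML264, where library 4 was highest. Their median was -0.04 with Arntl as a covariate and 1.59 within the libraries with Y-linked transcripts. Macrophage markers had a median of -0.06 over 15 genes and summed ranges of 135 to 230.0 and 156 to 193 CPM, and Adgre1, which encodes F4/80, had -0.33 ± 0.16. Cardiomyocyte (0.04), fibroblast (0.13), endothelial (-0.03) and smooth muscle and pericyte markers (-0.12) had medians near 0 with no call. Within them Actn2 and Tnnt2, of the sarcomere, had 0.23 ± 0.08 and 0.16 ± 0.10, Dpep1 0.75 ± 0.23, Esam 0.36 ± 0.14 and Pdgfrb -0.23 ± 0.09. The epicardial gene Wt1 was at 4.16, 2.32, 2.5 and 2.82 CPM in Sham and 6.42, 14, 3.93 and 5.69 in I/R + ML264 (1.36 ± 0.35, adjusted p = 0.134), in a list with a median of -0.13 over 5 genes, and Nr2f2 of the atrial list had -0.40 ± 0.14. Erythroid markers had a median of 0.36 over 7 genes, which was 0.66 without I/R + ML264 library 2, 1.10 within the libraries with Y-linked transcripts, 0.64 with the Y-linked level as a covariate and 0.05 with Arntl as a covariate. Lymphocyte markers had a median of 0.03 over 6 of 13. Adipocyte, lung epithelial and skeletal muscle markers passed the filter for 3 of 8, 1 of 8 and 3 of 10 genes.

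The deposited table gives estimated counts per transcript, so the share of each transcript in its gene could be compared. Among 9956 genes with 48151 transcripts, no gene passed the test of transcript share by edgeR in I/R + ML264 against Sham (0%), and 575 had an unadjusted p under 0.05. The F-test per gene called none either, while limma's voom with diffSplice called 82. The genes with the smallest p and a share that moved by at least 10 points were Rab8a, Ccdc187, Ttc39b, Gm11960, Eif3j1, Hbp1, Zc3h7a and Srsf5, each with adjusted p = 0.848. Their largest moves in mean share were 13.4 points for Srsf5, a splicing factor, up to 100.0 points for Ccdc187 and Gm11960, and 72.0 points for Rab8a, a GTPase of secretory traffic.

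The transcript names within a gene were not repeatable between libraries of one group. Among 6611 genes with at least 2 transcripts and 100 counts in all 12 libraries, the same transcript held the largest share in all 4 Sham libraries for 152 genes (2.3%) and in all 4 I/R + ML264 libraries for 162 (2.45%). It was the same in all 12 libraries for 6 genes (0.0908%). Myh6, the main heavy chain of adult mouse heart myosin, had a leading transcript with 99.2% to 99.9% of its counts in every library, under 2 different names over the Sham libraries and 3 over the I/R + ML264 libraries. Arl5b had a leading share of 79.0% to 91.1%, under 3 names in Sham and 2 in I/R + ML264. Of the 46 called genes, 34 had 2 or more transcripts with counts, and none of those kept 1 leading transcript over the 8 libraries of the comparison. Summed per gene, libraries of one group had Spearman correlations across genes of 0.959 to 0.982 over 12 pairs, where genes are not independent replicates. Transcripts matched by name had 0.147 to 0.162, and transcripts matched by their order of size within the gene 0.902 to 0.927. Sorting by size in every library raises a correlation by construction, so the latter value is no evidence on the names. Genes with a single transcript had 0.917 to 0.960. The gene sums used above do not depend on these names, whereas shares by transcript name could not be read as isoform use. Taking the largest share of each gene whatever its name, 2 of 6611 genes were called (smallest adjusted p = 0.0274, by limma), and 529 had an unadjusted p under 0.05.

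**Figure D5:**
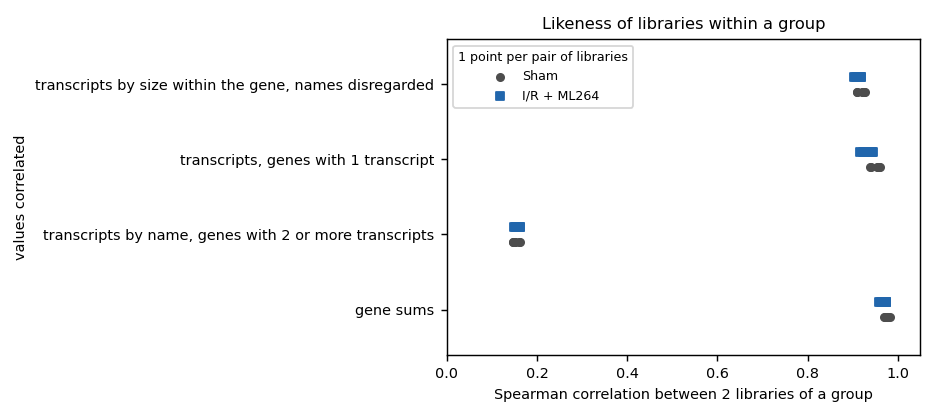
Each point is a pair of libraries within Sham or within I/R + ML264, placed by their Spearman correlation, for gene sums, transcripts matched by name, genes with a single transcript, and transcripts matched by size. Transcripts matched by name lie at 0.147 to 0.162 and the other 3 kinds of value at 0.902 or above. Matching by size sorts the values of each library, which raises that correlation by construction.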

How the data were processed

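Frozen mouse heart was profiled by bulk RNA-seq. Libraries were made with Nextera XT, which does not mark strand, and read as 100 bp pairs, per the labels' protocols. The authors deposited 1 table of estimated counts per transcript, made with FastQC and kallisto on GRCm38 (mm10) per the submitters' processing notes. Their versions, read trimming and annotation are not stated in those sources. Here, transcripts of a symbol were added up and the sums rounded to integers. Genes were kept by filterByExpr (minimum 10 counts), which left 15952. All 12 libraries entered 1 model in edgeR 4.0.16 (R 4.3.3) with TMM factors, robust quasi-likelihood F-tests and Benjamini-Hochberg adjustment over all genes, and genes with an adjusted p under 0.05 were called. Transcript shares were tested with edgeR's diffSpliceDGE and, as alternatives, limma 3.58.1. The scripts were tested on simulated data.

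A total of 22.26 to 29.93 M counts makes 3 counts equal to 0.1002 to 0.1348 CPM. Intervals and such limits include no error but that of counting, as there are no molecular identifiers. Kallisto divides reads among genes that share sequence, so the share of each named gene's 31-base words found in other genes of the table was computed. Values above 25% are called uncertain. These were Mlst8 (25.5%), Kcnj14 (35.6%), Hspb1 (55.4%) and Rpl29 (43.6%), of which the last 2 had log2 fold changes of 0.51 ± 0.20 and 0.19 ± 0.16. Coordinates are from GENCODE M21 (GRCm38), where 94.7% of the table's transcripts were found in the same version. Promoters are from RefSeq (GRCm38.p6), matched by symbol for 27 of the 41 higher and 3 of the 5 lower genes.

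The comparison, gene lists and rule for named genes were chosen with earlier results of these data known, so they are no independent support. The rule names the 12 highest and 12 lowest called genes among those whose log2 CPM averaged 1 or more and whose groups did not overlap, without predicted genes and pseudogenes. It also names up to 4 called members per list, genes called against both other groups (there were none) and Klf5. Further, it names up to 2 members per list called only in I/R, and the 8 genes with the smallest adjusted p in transcript share. Alternatives were DESeq2 1.42.0, RLE and upper-quartile factors, other filters, a spread that is not robust, 2 groups only, the replicate number as a block, voom with library weights, mitochondrial genes left out, covariates for Y-linked and Arntl levels, only libraries with Y-linked transcripts, and each library left out.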

Additional observations from a re-analysis of the deposited data

Results flagged for a closer look

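Among the named genes, 13 values lay far from the other 3 libraries of their group by Dixon's criterion for 4 samples, which chance meets in about 1 of 20 groups. The criterion was applied to the 46 called genes and 72 others, in each of the 3 groups. At that rate chance alone would give more such values than were found, so none of them is shown to be an outlier. In I/R + ML264, Kcnj14 had 5.84 CPM in library 3 against 0.0355 to 0.309 in the others, Eid3 had 4.68 in library 2 against 2.34 to 2.56, and Rasip1 had 16.6 in library 2 against 10.4 to 11.2. In Sham, Eid3 had 1.16 CPM in library 4 against 0.860 to 0.869. In Sham library 1, Nfkbia had 3.21 CPM against 1.59 to 1.77, Rasip1 had 7.42 against 5.04 to 5.43, and Ttc21a had 0.0452, a single count, against 0. In I/R library 1, Arf4 had 18.4 CPM against 23.9 to 24.4, Myo7b had 9.26 against 4.16 to 4.75, Ppp1r15a had 10.8 against 15.5 to 16.3, and Tnfrsf10b had 13.3 against 17.1 to 17.8. Slc16a13 had 8.65 CPM in I/R library 2 against 6.92 to 7.11, and mt-Nd1 had 56500 in I/R library 4 against 44600 to 46400.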

How the results depend on the processing

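The number of called genes, 46 (41 higher, 5 lower), moved with several choices, and the cause was not tested. DESeq2 called 370 (284 higher, 86 lower), a spread that is not robust 72 (68 higher), and no filter 78 (17 lower). Only the 2 groups compared gave 27 (24 higher, 3 lower), as did voom with library weights (27, 24 and 3). The libraries with Y-linked transcripts gave 27 (20 higher), with fewer libraries in the fit. The Y-linked covariate gave 13 (13 higher, 0 lower) and the Arntl covariate 12 (10 higher, 2 lower). Leaving out each library gave 9 to 101 called, 7 to 82 higher and 0 to 24 lower. RLE factors, upper-quartile factors, a filter of 1 CPM and leaving out mitochondrial genes moved no count by over 1.5 times. No named gene changed direction while called. Some named genes not called in the main fit were called in part of the 25 alternatives, such as Il6 in 6, Plk3 in 4 and Fosl2, Errfi1 and Skil in 3 each. Many others were called in none. With the replicate number as a block, 19 genes were called (17 higher, 2 lower), 17 of them among the 46. The numbers were not treated as pairs: same-numbered Sham and I/R + ML264 libraries had correlated deviations of -0.17, 0.04, -0.09 and -0.03. For transcript share, the count of 0 became 82 with voom and diffSplice and 2 with the largest share whatever its name, an alternative chosen after seeing the data. All other fits, the block included, gave 0. Depth limits the lowest genes: 3 counts stand for 0.1002 to 0.1348 CPM, so Klf5 and several Sham levels of Il6, Apol8, Ttc21a and Tktl1 are at or near that limit.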
